A study of Mus musculus with 3 samples.

Results

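Plasmacytoid dendritic cells (pDC) made up 377 of the 31943 cells that passed quality filters in 3 single-cell RNA-seq libraries of tumor-infiltrating lymphocytes, and the Kaede-green 1 library held 116 of them, Kaede-green 2 held 186 and Kaede-red held 75. Members were chosen by raw counts of unique molecular identifiers (UMIs, 1 per captured transcript). A member had at least 2 UMIs of Siglech, at most 1 of Cd3e, 0 of Ncr1, at most 5 of Cd79b and at most 4 of Lyz2, genes of T cells, natural killer (NK) cells, B cells and phagocytes. These 5 genes chose the members, so their levels are a description and carry no test. No pDC barcode occurred in more than 1 library.

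Plasmacytoid dendritic cells are the dendritic cells best known for secreting type I interferon after their endosomal receptors TLR7 and TLR9 meet viral or self nucleic acid. They are specified by the E protein TCF4 (E2-2) against the inhibitor ID2, carry an expanded secretory apparatus, and present antigen less readily than conventional dendritic cells (cDC). Mouse pDC share with lymphocytes the transcription of several antigen receptor and coreceptor genes, and in tumors they are often described as poor interferon producers.

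All 3 libraries came from MC38-Ova tumors, a mouse colon adenocarcinoma line expressing ovalbumin, grown under the skin of wild-type C57BL/6 mice that carry the photoconvertible protein Kaede and that had received an isotype control antibody. Tumors were injected as 250000 cells and illuminated on day 13, and cells were sorted on day 15, 48 h later. Kaede-red cells were in the tumor at illumination and stayed there, whereas Kaede-green cells (2 libraries) had arrived since. Cells were sorted as live, CD45+, TER119- and Kaede+, leaving out CD11b+ NK1.1- myeloid cells, so any pDC with surface CD11b would have been removed with them, and the number of animals pooled per library was not given in the sources used here.

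The pDC held 1337130, 2355174 and 1091149 UMIs in Kaede-green 1, Kaede-green 2 and Kaede-red, the order in which levels per library are given throughout. Levels are CPM, the summed UMIs of a gene divided by all UMIs of that cell type in the library and put on the usual CPM scale. The median pDC had 11429, 12325 and 14388 UMIs and 3006, 3189.5 and 3441 genes. The medians of all kept cells were 6628, 8512.5 and 12076 UMIs, so pDC were the deeper cells, most clearly in the green libraries.

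Markers given with the gate, though not used to choose members, were also high in the members. They were picked with earlier results of these data known, so they describe the members and do not test the label. Ccr9, the gut and thymus homing receptor for CCL25, stood at 1844, 1633 and 2493 CPM in pDC and 4.43, 11.7 and 3.7 CPM in all other cells. Cox6a2, an isoform of a cytochrome c oxidase subunit, stood at 1491, 1568 and 1467 CPM against 5.21, 10 and 2.4 CPM. Klk1, a tissue kallikrein, stood at 1156, 921 and 2038 CPM against 2.83, 5.17 and 1.58 CPM. These 3 transcripts were therefore near absent outside the gate in every library. Ly6d, a surface protein of early lymphoid cells, stood at 3487, 3348 and 2108 CPM against 22.7, 32.3 and 4.14 CPM, but B cells also carried it at 1417 and 1259 CPM in the green libraries. At least 2 of these 4 markers were detected in 107, 166 and 73 members, or 92.2%, 89.2% and 97.3%. Siglech itself, the sialic acid-binding receptor that defined the gate, stood at 1847, 1735 and 1865 CPM in the members.

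The markers differed in how evenly members carried them. Bst2, the interferon-inducible tetherin that pDC display at the surface, had a UMI in all 377 members, with a median of 40, 43 and 65 UMIs per cell. Ccr9 was detected in 95.7%, 94.1% and 98.7% of members and Cox6a2 in 86.2%, 81.7% and 92%. Klk1 was uneven: it was detected in 68.1%, 66.1% and 88.0% of members, with medians of 4, 3 and 22 UMIs and a highest value of 193, 142 and 203 UMIs in a cell. In B cells, which should lack it, Klk1 was found in 0 of 165 and 0 of 105 cells when every cell was thinned to 2000 UMIs, against 52.6% and 45.2% of pDC in the same green libraries, with median depths before thinning of 4077 and 4954 UMIs in B cells and 11429 and 12325 in pDC.

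To show the stretch of DNA next to these marker genes, the 250 bases before the RefSeq start (GRCm38.p6, the build called mm10, all + strand) are given for the 3 of 5 markers with an entry; Ly6d and Cox6a2 had none. Capitals mark the E box hexamer CACCTG or its reverse complement CAGGTG, the letters that E proteins such as TCF4 can bind.
Siglech chr7:55767934-55768183: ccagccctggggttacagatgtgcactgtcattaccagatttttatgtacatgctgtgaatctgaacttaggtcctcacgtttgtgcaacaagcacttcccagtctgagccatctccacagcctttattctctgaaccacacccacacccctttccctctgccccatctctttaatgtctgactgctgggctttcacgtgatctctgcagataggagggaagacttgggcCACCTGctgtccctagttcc
Klk1 chr7:44225110-44225359: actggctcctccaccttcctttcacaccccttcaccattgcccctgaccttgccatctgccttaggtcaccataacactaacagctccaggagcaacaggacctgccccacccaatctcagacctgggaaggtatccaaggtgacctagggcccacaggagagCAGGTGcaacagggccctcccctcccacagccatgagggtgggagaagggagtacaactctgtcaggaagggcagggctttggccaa
Ccr9 chr9:123766961-123767210: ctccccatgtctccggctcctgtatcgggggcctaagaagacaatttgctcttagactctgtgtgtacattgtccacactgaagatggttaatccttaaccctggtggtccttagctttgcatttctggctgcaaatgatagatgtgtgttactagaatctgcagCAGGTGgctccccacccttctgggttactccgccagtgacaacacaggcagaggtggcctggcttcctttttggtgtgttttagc

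Each window held the hexamer at 1 place, 20 to 15 bases before the start in Siglech, 87 to 82 in Klk1 and 85 to 80 in Ccr9. Of 32851 RefSeq promoter windows of the same length, 17.2% held CACCTG or CAGGTG on either strand. The other common E box, CAGCTG, which reads alike on both strands, was in 13.0% of windows and in none of these 3. A match of letters is a description of the window and not a binding site. The genes lie at chr7:55768178-55778925 (Siglech), chr7:44225360-44229618 (Klk1), chr9:123678439-123784330 (Ccr9, whose gene model overlaps several others), chr15:74762056-74763620 (Ly6d) and chr7:128205435-128206387 (Cox6a2) in mm10.

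Cells at the edge of the gate looked unlike the rest. The median member had 21.5, 19 and 26 Siglech UMIs, and 99, 148 and 72 members had at least 10. Members with exactly 2 Siglech UMIs numbered 7, 7 and 0, and 0 of these 14 had 2 or more of the other 4 markers. Just outside, 18, 54 and 3 cells had 1 Siglech UMI, of which 1, 4 and 0 had 2 or more of the other markers. The limits on the other 4 gate genes left out a further 18, 48 and 17 cells with at least 2 Siglech UMIs, nearly all by Cd3e (12, 30 and 11) or Ncr1 (7, 19 and 6). The Cd79b limit left out 0 cells and the Lyz2 limit 1, 2 and 0. The cells left out had medians of 23545.5, 19009 and 20867 UMIs, deeper than members, and Gzmb, a granzyme of T and NK cells, at 1607, 1598 and 1825 CPM beside Ccr9 at 616, 1017 and 1406 CPM. Transcripts of both kinds occurred together in them, and none is counted here as pDC. They stayed among the other cells, where they held 197 of the 236, 421 of the 623 and 220 of the 259 Klk1 UMIs. For Ccr9 they held 260 of 370, 1011 of 1410 and 530 of 609 UMIs. Among members, 6, 32 and 5 had a Cd3e UMI.

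Markers of T cells, NK cells, B cells and phagocytes had low summed levels in pDC, and those of T cells, NK cells and phagocytes were highest in Kaede-green 2. Each of these sums includes a gate gene (Cd3e, Ncr1, Cd79b or Lyz2), so its level could in part be fixed by the gate. Markers of cDC and of plasma cells were more abundant, summing to 805, 749 and 533 CPM and to 1769, 1495 and 2662 CPM. In other cells they summed to 48.0, 67.9 and 33.8 CPM and to 294, 270 and 251 CPM. Summed over 6 T cell markers (Cd3e, Cd3d, Cd3g, Trac, Trbc2 and Cd28), pDC held 85.3, 188 and 102 CPM against 3157, 3494 and 3342 CPM in other cells. Summed over 7 NK cell markers, of which Gzma was the most abundant, they held 150.3, 506 and 209 CPM against 7352, 6393 and 6159 CPM. B cell markers summed to 50.9, 34.8 and 46.7 CPM against 76.3, 43.4 and 3.41 CPM in other cells, so pDC were above other cells in Kaede-red. They were mostly Cd79b, while Ms4a1 was at 0 in Kaede-red. Phagocyte markers summed to 59.1, 79.4 and 47.7 CPM against 16.0, 95.5 and 51.3 CPM in other cells, so pDC were above other cells in Kaede-green 1. Apoe was the most abundant of them, with Adgre1 at 0 in every library and Csf1r at 0 in Kaede-red. The mast cell and basophil markers were at 0 in all pDC.

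The share of pDC was lower in the Kaede-red library than in either green library. It was 1.16% in Kaede-green 1 (exact 95% binomial interval, 0.959 to 1.39), 1.68% in Kaede-green 2 (1.45 to 1.94) and 0.690% in Kaede-red (0.543 to 0.865). The Kaede-red interval did not meet the green ones, yet the green libraries also differed from each other, and no test of color was made with 1 Kaede-red library. The order of the 3 libraries was the same when Siglech was required at 1 or at 3 UMIs, Cd3e at 0, high doublet scores were removed, all 34781 deposited cells were used or every cell was thinned to 2000 UMIs. With that thinning the Kaede-red interval (0.527 to 0.845) overlapped that of Kaede-green 1 (0.806 to 1.20). Intervals cover counting error only. The paper reports sorting to bring cell numbers closer together, so shares may also depend on the sort, which was not tested.

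**Figure D1:**
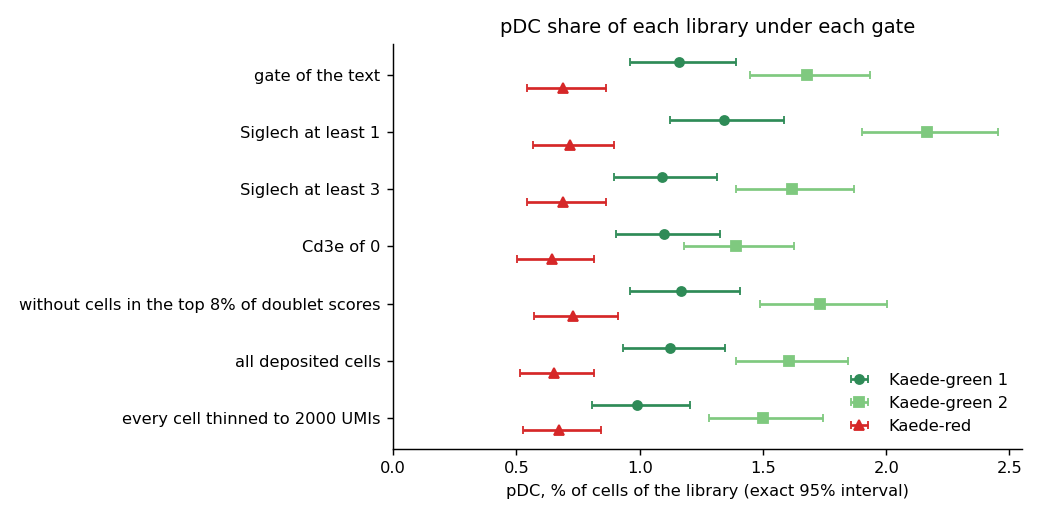
Share of cells in each library (x axis, percent, with exact 95% binomial intervals) that were pDC, by gate or cell filter (y axis); green circles and squares are the Kaede-green libraries and red triangles Kaede-red. In the top row the points lie at 1.16%, 1.68% and 0.690%, and Kaede-red lies lowest in every row.

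Genes were compared between pDC and all other cells of the same library by the edgeR quasi-likelihood test on summed UMIs, with library as a block (n = 3 libraries, 6 sums) and Benjamini-Hochberg (BH) adjustment over 13569 genes. The members were picked from the same cells, so a p here states how repeatable a difference was over the 3 libraries. The spread of each gene was drawn toward a value shared over genes. Of the genes tested, 19.3% were higher in pDC and 25.1% lower (44.4% in either direction), and counts for gene lists are read beside those shares. The comparator was mostly T and NK cells (10641 cells had the gate for CD8 T cells alone), and genes that travel with Cd3e, Ncr1, Cd79b or Lyz2 were in part fixed by the gate. The scaling mattered for small changes: the median log2 change of all genes was -0.18 with trimmed mean (TMM) scaling and -0.0013 with library totals, and 43.4% of calls were higher in pDC with TMM against 54.1% without it and 50.6% when other cells were thinned to the pDC total.

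Genes long tied to pDC were higher in pDC without exception among those that could be tested: 19 of 19, with a median log2 change of 6.07, beside -0.18 for all genes. These genes were listed because pDC are known for them, and with earlier results of these data known, so the count describes the members and does not test the label. Bst2 stood at 3686, 3571 and 4472 CPM against 540.4, 589.5 and 431 CPM (log2 change 2.73 ± 0.15, SE; edgeR BH-adjusted p = 2.4e-07). Dntt, the template-independent polymerase of antigen receptor rearrangement, stood at 262, 196 and 360.2 CPM against 0.396, 1.11 and 0.511 CPM (8.51 ± 0.40). Lair1, an inhibitory collagen receptor, stood at 765, 574 and 1018 CPM against 6.44, 9.39 and 8.85 CPM (6.38 ± 0.23). The groups did not overlap for any of the 3, and Dntt was the closest to absent elsewhere. Cybb, the oxidase subunit of phagocytes, stood at 948, 834 and 1068 CPM against 10.3, 16.8 and 5.66 CPM (6.39 ± 0.34). Cd209d, a C-type lectin, was the uneven member of the list at 265, 168 and 43.1 CPM, lowest in Kaede-red.

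Among 20 transcription factors for and against pDC fate, 13 were higher, 5 lower and 2 did not pass, with a median of 1.28. Tcf4 stood at 1647, 1634 and 1268 CPM in pDC and 43.6, 50.7 and 38.1 CPM in other cells (log2 change 4.92 ± 0.13; edgeR BH-adjusted p = 3.7e-08). Its antagonist Id2 moved the other way, at 56.1, 71.8 and 44.9 CPM against 612, 641 and 657 CPM (-3.65 ± 0.17). Spib, an ETS factor, stood at 272, 362 and 307 CPM against 2.28, 4.23 and 1.01 CPM (6.97 ± 0.34). The activator and its inhibitor thus lay on opposite sides in all 3 libraries. Bcl11a, which acts upstream of Tcf4, changed by 6.77 ± 0.48, Zeb2, a repressor of Id2, by 2.24 ± 0.14, and Runx2, needed for pDC exit from bone marrow, by 1.85 ± 0.12. Irf8 was at 2232, 2157 and 2485 CPM in pDC and already at 721, 742 and 848 CPM in other cells, and its change was smaller at 1.39 ± 0.10. The cDC factor Batf3 was lower (-2.89 ± 0.56, but -0.69 and adjusted p 0.33 with Siglech at least 1), and Zbtb46 and Klf4 gave -0.33 ± 0.33 and 0.053 ± 0.29 and did not pass. Without Kaede-red Klf4 passed (0.50, adjusted p 0.0012).

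**Figure D2:**
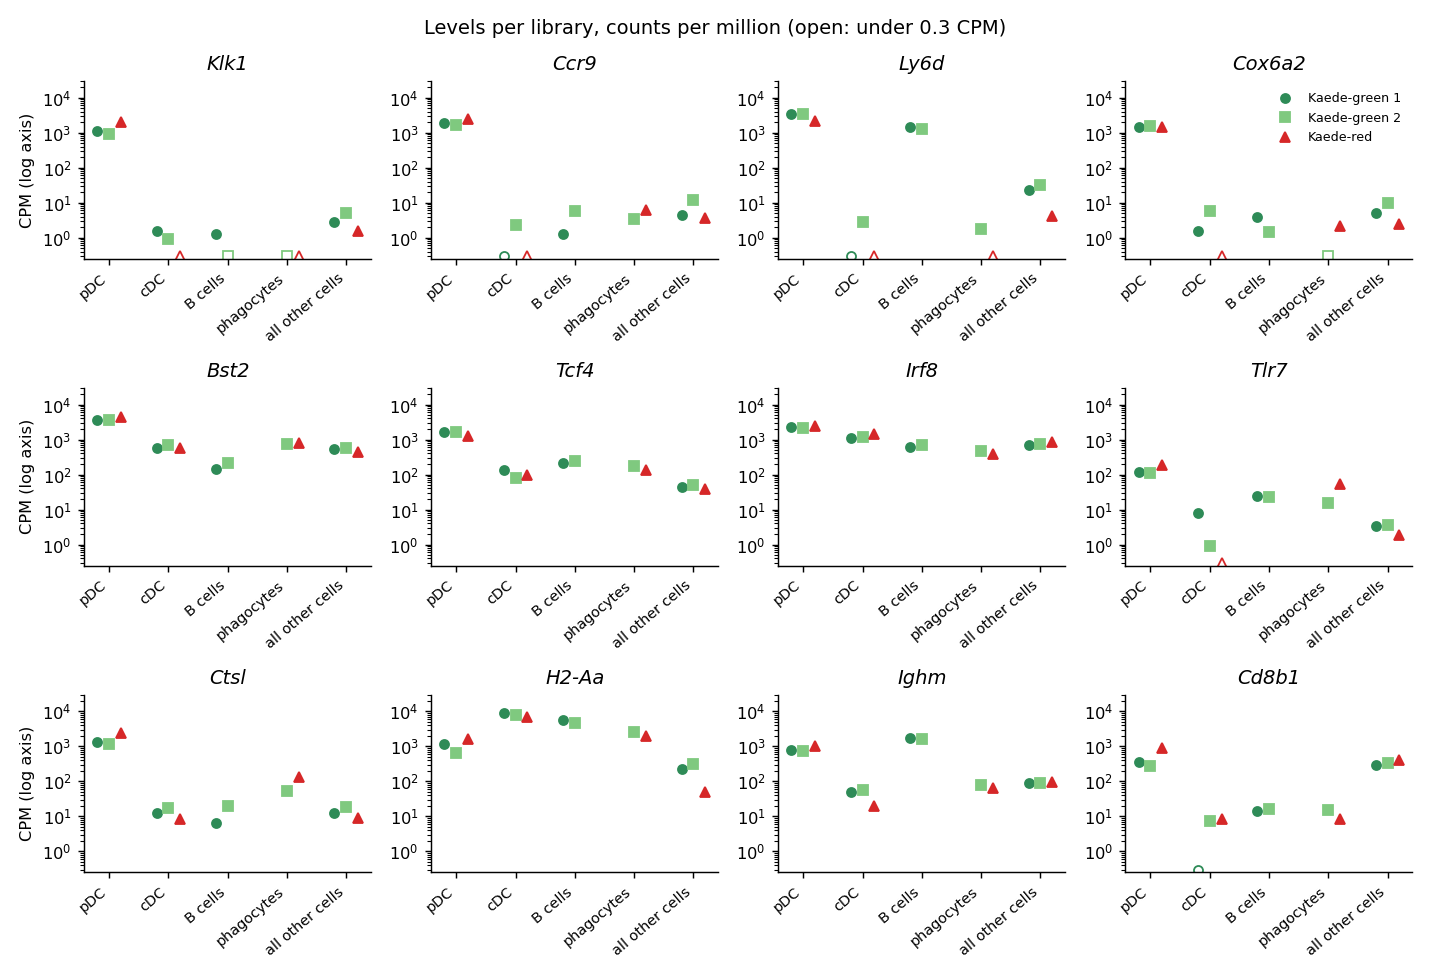
Level of 12 genes (y axis, CPM of summed UMIs, log axis) in pDC, cDC, B cells, phagocytes and all other cells, 1 point per library; open points lie under 0.3 CPM, and libraries with under 10 cells of a type are not drawn. H2-Aa was used to choose the cDC. Klk1, Ccr9 and Cox6a2 lie above 900 CPM in pDC alone, Ly6d and Ighm also mark B cells, and Cd8b1 lies at 282 to 881 CPM in pDC, far above cDC, B cells and phagocytes.

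Over 27 nucleic acid sensing genes, 13 were higher in pDC, 3 lower and 11 did not pass, with a median of 0.34. Tlr7, the receptor for single-stranded RNA, stood at 121, 108 and 192 CPM in pDC and 3.38, 3.66 and 1.92 CPM in other cells (log2 change 5.37 ± 0.31; edgeR BH-adjusted p = 3.5e-07). Tlr9, the receptor for CpG DNA, was far scarcer at 4.49, 8.07 and 8.25 CPM, though higher than in other cells (5.88 ± 0.68). Unc93b1, which escorts both receptors to endosomes, stood at 690.3, 582 and 745 CPM against 29.5, 34.2 and 24.2 CPM (4.35 ± 0.18). Slc15a4, an endolysosomal transporter needed for their signal, changed by 3.29 ± 0.16, and the receptor chaperones Cnpy3 and Hsp90b1 by 2.65 ± 0.15 and 1.19 ± 0.13. The adaptor Myd88 changed less, by 0.76 ± 0.14. The endosomal receptors Tlr3 and Tlr13 gave -1.84 ± 0.74 and -0.95 ± 1.44 on few UMIs and did not pass. Genes of cytosolic sensing were split: Tmem173, which encodes STING, was higher (1.01 ± 0.14), whereas Ddx58, which encodes RIG-I, was at 9.72, 8.49 and 3.67 CPM against 82.1, 68.5 and 50 CPM (-3.34 ± 0.20), Cgas fell by 2.49 on the log2 scale, and Ifih1 (MDA5) gave 0.011 ± 0.15 and did not pass.

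Type I interferon transcripts were not detected in pDC beyond 1 UMI. Across 18 type I genes in the files (the Ifna genes, Ifnab, Ifnb1, Ifnz, Ifne and Ifnk), pDC held 0, 1 and 0 UMIs, and the 1 UMI was of Ifnk. All other cells together held 6, 9 and 22 UMIs of these genes. At this depth 3 UMIs would be 2.24, 1.27 and 2.75 CPM, and 0 of 116 and 0 of 75 cells allow a share of cells with such a UMI of up to 3.13% and 4.80% (exact 95% limits). Type III interferon was the exception. Ifnl2 (IFN-λ2) had 4, 17 and 11 UMIs in 4, 6 and 8 pDC, or 2.99, 7.22 and 10.1 CPM, against 1, 7 and 2 UMIs in all other cells, and passed the test (log2 change 7.72 ± 0.77; edgeR BH-adjusted p = 1.7e-05). Its near copy Ifnl3 had 1, 4 and 0 UMIs, the 4 in 1 cell, and reads of the pair may be shared between them. Ifnl2 (chr7:28508836-28510455) also lies within Samd4b on the same strand, so reads of the host gene cannot be told apart there. Ifng was at 12.7, 13.2 and 7.33 CPM in pDC against 188, 196 and 128 CPM in other cells, and 14 of the 17 UMIs in Kaede-green 1 lay in 1 cell.

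Both chains of the type I interferon receptor were higher in pDC, while the response genes mostly were not. Ifnar1 stood at 238, 269 and 252 CPM against 85.2, 90.2 and 70.9 CPM (log2 change 1.45 ± 0.13; edgeR BH-adjusted p = 7.6e-06). Ifnar2 stood at 502, 495 and 564 CPM against 59.6, 63.6 and 46.4 CPM (3.03 ± 0.16). The type II receptor was split: the ligand-binding chain Ifngr1 was lower at 71.8, 127 and 47.7 CPM against 974, 839.7 and 592 CPM (-3.52 ± 0.21) and the signaling chain Ifngr2 higher at 108, 132 and 122 CPM against 10.7, 9.97 and 4.47 CPM (3.75 ± 0.24). Of the 16 receptor and signaling genes tested, 8 were higher and 5 lower, or 9 and 4 without TMM. Irf7, the factor that drives interferon genes and is itself induced by interferon, stood at 547, 509.9 and 668 CPM against 263, 252 and 170.5 CPM (1.16 ± 0.18).

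Of 42 interferon-stimulated genes, 7 were higher in pDC, 22 lower and 13 did not pass, with a median of -0.74 (9 higher and 22 lower without TMM). Ifit1, a sensor of foreign RNA caps, stood at 36.6, 15.7 and 33 CPM in pDC against 249, 168 and 101 CPM (log2 change -2.82 ± 0.27; edgeR BH-adjusted p = 1.3e-05). Rtp4, a chaperone of receptors, stood at 17.2, 12.3 and 9.16 CPM against 162, 119.7 and 91.7 CPM (-3.45 ± 0.16). Cxcl10, the chemokine that draws CXCR3+ T cells, stood at 69.6, 33.5 and 12.8 CPM against 534, 451 and 327 CPM (-3.82 ± 0.26). Each of these was lower in pDC in every library. Isg15, a ubiquitin-like modifier, was much closer at 583, 497 and 421 CPM against 741, 672 and 481 CPM (-0.51 ± 0.12), a call lost when either Kaede-green library was left out (-0.51 and -0.47, adjusted p 0.061 and 0.070) and with Siglech at least 1 (-0.32, adjusted p 0.067). The guanylate binding proteins Gbp2, Gbp3, Gbp4, Gbp5 and Gbp7 were all lower. The 7 that were higher were Bst2, Ifi44 (1.90 ± 0.15), Iigp1 (1.53 ± 0.19), Oasl2 (1.41 ± 0.20), Slfn5 (1.31 ± 0.13), Irgm1 and Trim30a.

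Genes of antigen presentation on MHC class II were mostly higher: 12 of 15 genes were higher in pDC, 0 lower and 3 did not pass, with a median of 2.62. H2-Aa, the class II alpha chain, stood at 1186, 663 and 1646 CPM against 218, 322 and 48.5 CPM (log2 change 2.62 ± 0.60; edgeR BH-adjusted p = 0.0051). Cd74, the invariant chain that guards the groove, stood at 4371, 3201 and 5379.6 CPM against 594, 843 and 169 CPM (3.05 ± 0.46). Ctsl, a protease that trims the invariant chain, had the largest change at 1344, 1166 and 2426 CPM against 12.8, 18.7 and 9.21 CPM (6.71 ± 0.37). All 3 were lowest in Kaede-green 2 and highest in Kaede-red among pDC, whereas H2-Aa and Cd74 in other cells were lowest in Kaede-red. Members varied widely: the summed UMIs of H2-Aa, H2-Ab1, H2-Eb1 and Cd74 had quartiles of 15.8 and 119 in Kaede-green 1, 9.25 and 85.5 in Kaede-green 2 and 41.5 and 193 in Kaede-red, with medians of 49.5, 37.5 and 96. The class II peptide exchange chains H2-DMa and H2-DMb1 were also higher (3.31 ± 0.21 and 3.32 ± 0.43), as were Lgmn, Ifi30 and Ctss (3.93 ± 0.26, 3.07 ± 0.15 and 2.14 ± 0.13), which process antigen in endosomes. H2-Eb2, H2-Ob and H2-DMb2 did not pass.

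MHC class I and costimulatory genes did not follow. Of 22 class I genes, 3 were higher, 5 lower and 14 did not pass, a balance that turned to 6 higher and 2 lower without TMM. B2m, the class I light chain, stood at 3271, 3292 and 3750.2 CPM against 3611, 3676 and 3545 CPM (-0.25 ± 0.092), a call lost without either Kaede-green library (adjusted p 0.34 and 0.33) and without TMM (0.56). Of 19 costimulation and tolerance genes, 4 were higher and 11 lower, with a median of -1.04. Cd80, a ligand of CD28, had 2, 3 and 2 UMIs in pDC in all, or 1.5, 1.27 and 1.83 CPM, against 6.51, 9.66 and 10.4 CPM (log2 change -2.78 ± 0.41; edgeR BH-adjusted p = 2.7e-04). With Siglech at least 1 the change was -0.86 and did not pass (adjusted p 0.16). Ccr7, the lymph node homing receptor of mature dendritic cells, stood at 20.9, 17.4 and 22.9 CPM against 192, 187 and 127 CPM (-3.25 ± 0.19). Cd86, the other CD28 ligand, was at 38.1, 42 and 11.9 CPM against 26.6, 33.7 and 16.5 CPM (0.053 ± 0.20) and did not pass, though it did with Siglech at least 1 (0.61, adjusted p 0.031). Lag3, an inhibitory receptor for MHC class II, was present in pDC at 369, 223 and 428 CPM and in 88.8%, 79.0% and 96.0% of members, against 132, 163 and 268 CPM in other cells (0.69 ± 0.19; adjusted p = 0.013). That call was lost without the library block (adjusted p 0.12) and without Kaede-green 1 (0.17). Cd200, which restrains myeloid cells, was higher (3.27 ± 0.17). Cd40 (1.43 ± 0.37) and Icosl (0.88 ± 0.31) passed on few UMIs, and both calls were lost with Siglech at least 3 (adjusted p 0.055 and 0.14) and without Kaede-green 1 (0.16 and 0.23), that of Icosl also without Kaede-green 2 (0.051) or Kaede-red (0.068).

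**Figure D3:**
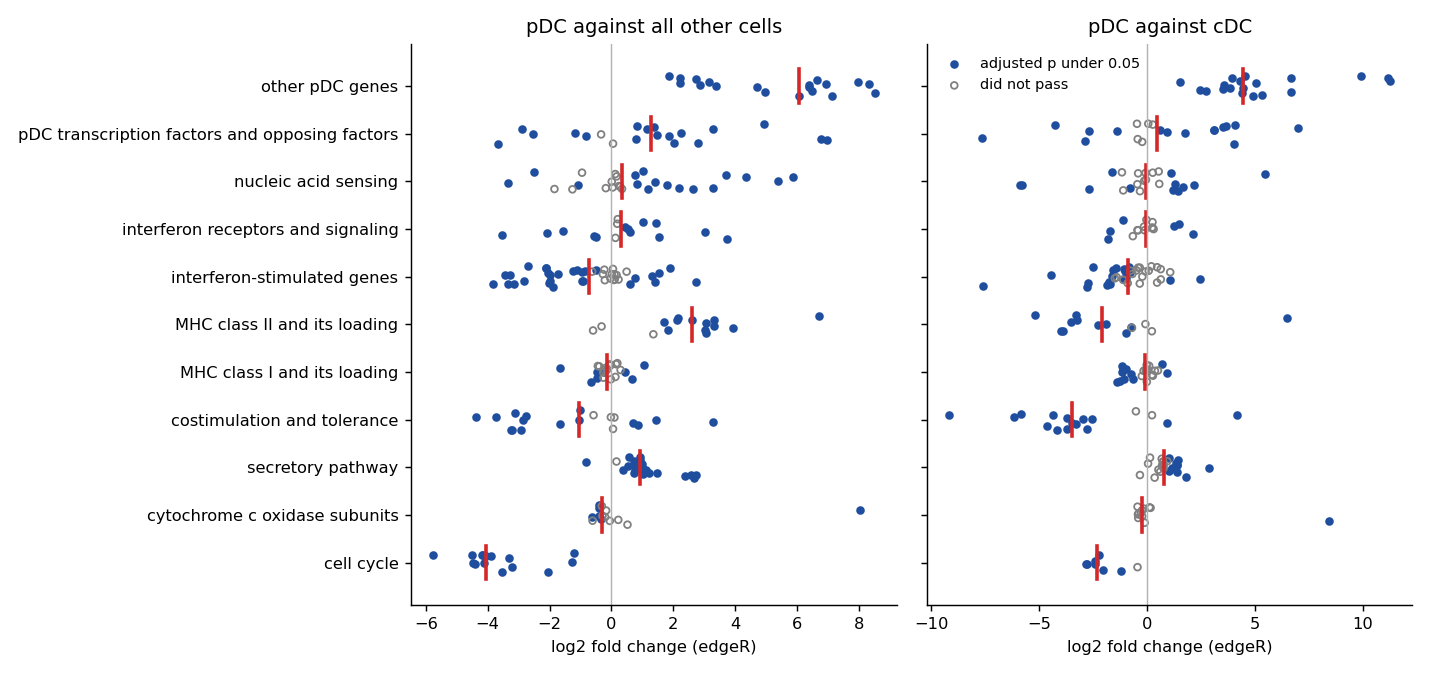
Log2 fold change (x axis, edgeR) of each tested gene by gene list (y axis) for pDC against all other cells (left, 3 libraries) and against cDC (right, 3 libraries); filled points had an adjusted p under 0.05, open points did not, red bars are list medians, and genes that chose either cell type are left out. The MHC class II median lies at 2.62 on the left and -2.10 on the right, and the costimulation median at -1.04 and -3.46.

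Transcripts of the T cell coreceptors were found in pDC at levels that other antigen-presenting cells lacked. Cd4 stood at 120.4, 87.9 and 173 CPM in pDC and 21.5, 22.8 and 11.8 CPM in other cells (log2 change 2.58 ± 0.30; edgeR BH-adjusted p = 5.1e-05). Cd8b1, the beta chain of CD8, stood at 348, 282 and 881 CPM against 285, 324 and 399 CPM (0.23 ± 0.21; adjusted p = 0.41), and Cd8a at 314, 309 and 209 CPM against 224, 298 and 376 CPM (-0.27 ± 0.22; adjusted p = 0.33). The comparator here was mostly T and NK cells, and neither CD8 chain passed the test against it. Without Kaede-red the Cd8b1 change was -0.13 and the Cd8a change 0.094, and without Kaede-green 2 Cd8b1 passed (0.52; edgeR BH-adjusted p = 0.045). Of the 14 coreceptor and T cell receptor complex genes tested, Cd4 alone was higher, and 11 were lower, among them Cd3d at 15.7, 35.2 and 19.2 CPM against 626, 675 and 701 CPM and Trac at 15.7, 28.9 and 27.5 CPM against 449, 459.9 and 432 CPM, as the Cd3e limit would in part fix.

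Against antigen-presenting cells all 3 coreceptor genes passed in each comparison. Beside cDC, the log2 changes were 5.83 ± 0.42 for Cd4, 3.06 ± 0.22 for Cd8a and 5.88 ± 0.48 for Cd8b1 (edgeR BH-adjusted p = 7.0e-05, 7.5e-05 and 1.1e-04; n = 3 libraries). Beside B cells of the green libraries, they were 6.01 ± 0.44, 3.75 ± 0.29 and 4.22 ± 0.23. Beside phagocytes, which had 0 Cd4 UMIs in Kaede-green 2 and Kaede-red, Cd8a and Cd8b1 changed by 4.11 ± 0.47 and 4.98 ± 0.66.

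The share of pDC with a coreceptor UMI was taken after thinning each cell to 2000 UMIs. For Cd8b1 it was 32.8% (exact 95% interval, 24.3 to 42.1), 29.6% (23.1 to 36.7) and 60.0% (48.0 to 71.1). In B cells it was 3.03% and 2.86% in the green libraries, in cDC 0 of 35, 0 of 120 and 0 of 31 cells (up to 10.0%, 3.03% and 11.2%), and in CD8 T cells 68.6%, 66.8% and 75.4%. The pDC intervals lay above the B cell shares in both green libraries. For Cd4 the pDC share was 14.7%, 10.2% and 26.7%, against 0% and 0.952% in B cells. For Cd8a it was 31.0%, 30.1% and 26.7%, against 1.82% and 7.62% in B cells. With all UMIs the pDC shares were 55.2%, 57.5% and 81.3% for Cd8b1, 49.1%, 40.9% and 70.7% for Cd4, and 59.5%, 63.4% and 54.7% for Cd8a, at median depths of 11429, 12325 and 14388 UMIs in pDC, 4077 and 4954 in B cells and 16316, 16775 and 12953 in cDC.

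Coreceptor transcripts were also set beside T cell receptor transcripts of the same cells. Per UMI of Trac, Trbc2, Cd3d and Cd3g together, pDC had 5.05, 1.72 and 10.2 UMIs of Cd8b1, and CD8 T cells 0.166, 0.150 and 0.173. The gates fix part of that gap, since pDC had at most 1 Cd3e UMI and CD8 T cells at least 2. B cells, which had the same Cd3e limit as pDC, held 0.0965 and 0.0498 Cd8b1 UMIs per such UMI in the green libraries. The ratio of Cd8b1 to Cd8a UMIs was 1.11 and 0.912 in the green pDC and 4.21 in the red pDC, against 1.21, 1.07 and 1.05 in CD8 T cells, which were gated on Cd8a. In Kaede-red, 31 of 75 pDC had Cd8b1 and no Cd8a, 30 had both, 11 had Cd8a alone and 3 had neither. In the green libraries 22 of 116 and 35 of 186 had Cd8b1 alone and 42 and 72 had both. Cd4 and Cd8b1 were found together in 41, 56 and 45 members. Cd8b1 (chr6:71322788-71337494) and Cd8a (chr6:71373427-71379173) are neighbors on chromosome 6, and Cd4 lies at chr6:124864692-124888221.

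**Figure D4:**
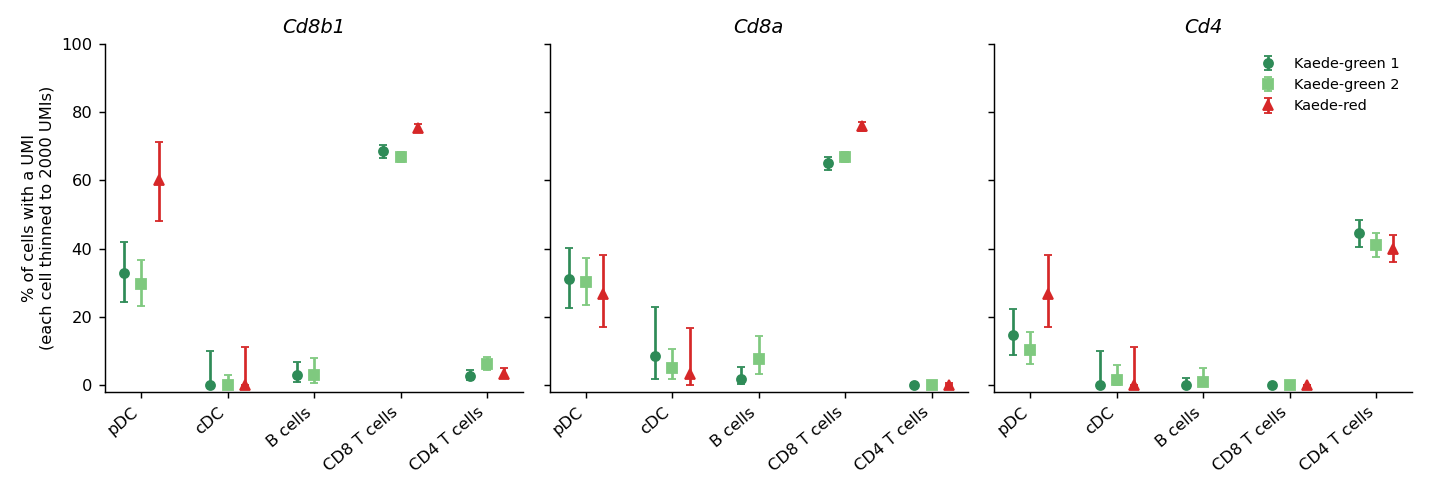
Share of cells with at least 1 UMI of Cd8b1, Cd8a or Cd4 (y axis, percent, with exact 95% binomial intervals) after thinning each cell to 2000 UMIs, by cell type and library (x axis). T cell types were gated on Cd8a and Cd4, so those panels show the gate for T cells; Cd8b1 lies at 32.8%, 29.6% and 60.0% in pDC, between B cells and CD8 T cells.

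Of the 13 cytokines and chemokines tested, 3 were higher in pDC and 7 lower, with a median of -2.91, or -0.47 with the genes at 0 in pDC set to their bounds. Ccl4, an inflammatory chemokine, was the most abundant, at 2232, 1249.6 and 3232 CPM against 495, 563 and 238 CPM (log2 change 2.17 ± 0.38; edgeR BH-adjusted p = 8.8e-04). It was detected in 79.3%, 77.4% and 84.0% of members, and the highest cell held 15.2%, 7.78% and 15.9% of its UMIs. Il12a, the p35 chain of IL-12 and IL-35, stood at 74.8, 43.3 and 42.2 CPM against 0.551, 0.739 and 0.176 CPM (6.65 ± 0.36). Its partner Il12b had 0 UMIs in all pDC and was at least 7.38-fold lower than in other cells (bound from 3 UMIs over all pDC). The chains of IL-12 were thus not found together in pDC. Tnf was higher at 44.9, 49.3 and 115 CPM against 23.3, 16.6 and 19.4 CPM (1.55 ± 0.25), while Ccl5 was lower at 219, 252 and 43.1 CPM against 4843, 3599.8 and 970.0 CPM (-4.43 ± 0.16).

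Of 14 cytokine receptors, 7 were higher in pDC (Flt3, Csf2ra, Csf2rb, Csf2rb2, Tgfbr1, Il7r and Il10ra), 3 lower (Il2rb, Il2rg and Il15ra) and 4 did not pass. Flt3, the receptor for the cytokine that drives pDC development, stood at 126, 111 and 87.1 CPM against 2.55, 6.14 and 1.28 CPM (log2 change 5.05 ± 0.33; edgeR BH-adjusted p = 7.1e-07). Csf2rb2, a beta chain of the IL-3 receptor, stood at 288, 254 and 262 CPM against 2.5, 5.27 and 1.29 CPM (6.49 ± 0.36). Il7r, the lymphoid IL-7 receptor chain, was at 359, 309 and 288 CPM, above 152, 144 and 155 CPM in a comparator rich in T cells (0.90 ± 0.13). Il2rb was lower (-4.22 ± 0.30), and Il3ra, the alpha chain of the IL-3 receptor, gave 0.047 ± 0.17 and did not pass. Of 18 chemokine and homing receptors, 5 were higher and 9 lower: Cmklr1, the chemerin receptor, stood at 20.2, 21.7 and 1.83 CPM against 1.74, 1.86 and 0.541 CPM (3.13 ± 0.38), whereas S1pr1, the egress receptor, was at 4.49, 2.55 and 1.83 CPM against 91.4, 77.2 and 16.6 CPM (-4.66 ± 0.27). Itgae, the CD103 chain, had 0 UMIs in pDC and was at least 21.9-fold lower.

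The secretory pathway was higher almost throughout, with 23 of 25 genes higher, 1 lower and 1 that did not pass, at a modest median of 0.92. Xbp1, the factor that expands the endoplasmic reticulum in secreting cells, stood at 489, 499.8 and 698 CPM against 79.5, 83.1 and 61.8 CPM (log2 change 2.72 ± 0.19; edgeR BH-adjusted p = 1.1e-06). Herpud1 and Edem2, which clear misfolded proteins, changed by 2.56 ± 0.24 and 2.67 ± 0.15, and Sec61b, a subunit of the translocon, by 0.99 ± 0.12. Ern1, the sensor kinase that splices Xbp1, was the member that was lower (-0.82 ± 0.17). Transcripts usually tied to B and plasma cells were also found: Ighm, the constant region of IgM, stood at 793, 722 and 1007 CPM against 89.2, 89.6 and 94.7 CPM (3.01 ± 0.14) and had a UMI in 115 of 116, 186 of 186 and 75 of 75 members. Igkc stood at 473, 269 and 942 CPM against 106, 78.5 and 78.1 CPM (2.32 ± 0.29). Jchain passed on few counts, at 3.74, 0 and 10.1 CPM, and did not pass without Kaede-green 1 (adjusted p 0.11) or without the library block (0.084). The plasma cell factor Prdm1 was lower (-2.62 ± 0.31), and Cd79a, the signaling partner of surface immunoglobulin, stood at 8.97, 5.1 and 0 CPM against 2965 and 2299 CPM in B cells of the green libraries, which were gated on it.

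Cox6a2 was the single cytochrome c oxidase subunit that was higher. Of 14 subunits tested, 5 were lower and 8 did not pass, and without TMM 2 were higher and 0 lower. The ubiquitous isoform Cox6a1 stood at 336, 354 and 292 CPM against 273, 301 and 325 CPM (-0.052 ± 0.14), so in pDC the Cox6a2 transcript was the more abundant of the pair in CPM, which in this 3' assay is not scaled by length. Mitochondrial transcripts took a median of 4.60%, 4.01% and 4.27% of UMIs in pDC and 3.17%, 2.83% and 2.38% in other cells.

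Cell cycle genes were lower without exception, 15 of 15, with a median of -4.04. Mki67, expressed in dividing cells, had 0, 12 and 2 UMIs in pDC, or 0, 5.1 and 1.83 CPM, against 30.5, 58 and 86 CPM in other cells (log2 change -4.52 ± 0.36; edgeR BH-adjusted p = 3.2e-06). It was detected in 0 of 116 pDC in Kaede-green 1, in 5.91% in Kaede-green 2 and in 2.67% in Kaede-red.

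The largest increases included Smim5, of the pDC genes above, and several genes outside the lists. Gm21762 stood at 898, 718 and 823 CPM against 1.61, 5.52 and 1.53 CPM (log2 change 8.22 ± 0.45; edgeR BH-adjusted p = 2.3e-07). Smim5, a small membrane protein, stood at 467, 398 and 611 CPM against 0.851, 2.94 and 0.906 CPM (8.31 ± 0.46), and Cdh5, or VE-cadherin, the adhesion molecule of endothelium, at 80, 72.2 and 107 CPM against 0.168, 0.548 and 0.122 CPM (8.16 ± 0.44). Foxr1 stood at 58.3, 40.8 and 87.1 CPM and 1810065E05Rik at 71, 76.4 and 33 CPM. The antisense gene Gm14964 (chr19:6530711-6532011), which lies within Nrxn2 on the other strand, stood at 32.9, 36.9 and 56.8 CPM. Myh13, Calm4, Esrp1, Gm5441, Egfr and Rai2 completed the top 15 beside Klk1, Ccr9 and Dntt, but on 5 to 30 UMIs per library. The 10 largest decreases with at least 100 CPM in the other cells of every library ran from -5.61 ± 0.25 to -5.02 ± 0.22. They were Gzmf, Gzmb, Gzmc, Cd3g, Cd3d, Klra4, Klrc1, Cxcr6, Bcl2a1d and Bcl2a1b. Of these, the granzyme, Cd3, Klra4 and Klrc1 genes are genes of T or NK cells, in part fixed by the gate. The Bcl2a1 genes are near copies that may share reads.

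Compared with 35, 120 and 31 cDC (gated on Flt3, H2-Aa and the absence of other lineages), pDC held fewer transcripts for antigen presentation and costimulation. Of 7697 genes tested, 15.3% were higher in pDC and 14.8% lower (30.2% in either direction). Of 14 MHC class II genes not used for the gates, 1 was higher, 10 lower and 3 did not pass, with a median of -2.10. The cDC were required to have at least 5 H2-Aa UMIs and pDC were not, so the level of genes that travel with H2-Aa was in part fixed by the gate. Cd74 stood at 4371, 3201 and 5379.6 CPM in pDC and 19312, 18393 and 14209 CPM in cDC (log2 change -2.28 ± 0.31; edgeR BH-adjusted p = 9.6e-04), and H2-Ab1 at 842, 456 and 1111 CPM against 8589.9, 8106 and 5354 CPM (-3.52 ± 0.40). Ctsl was the gene that went up, 6.49 ± 0.40, from 12.7, 16.9 and 8.54 CPM in cDC. Costimulation genes were lower in 13 of 17 and higher in 2, with a median of -3.46: Cd80 changed by -6.16 ± 0.33, Cd86 by -3.69 ± 0.38 and Ccr7 by -5.86 ± 0.35, and the 2 that were higher were Lag3 (4.17 ± 0.24) and Tgfb1 (0.93 ± 0.20). Of 40 interferon-stimulated genes, 2 were higher and 19 lower. Il1b stood at 1949.7, 2244 and 1294 CPM in cDC (-5.43 ± 0.76), and Xcr1, the marker of cross-presenting cDC, was near 0 in pDC at 0.748, 1.7 and 0 CPM against 124, 114 and 156 CPM. The cDC lectin Clec9a did not pass, at 73.3, 65 and 74.2 CPM in pDC against 63.6, 88.9 and 47 CPM (-0.19 ± 0.27; adjusted p = 0.63), and Clec10a was higher in pDC (4.25 ± 0.55). Without Kaede-green 1 the numbers of genes called were 677 higher and 734 lower, and without Kaede-red 1804 and 1953, beside 1181 and 1143 in all 3 libraries.

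Compared with B cells of the green libraries (165 and 105 cells), 23.5% of 7724 genes were higher in pDC and 20.5% lower (44.0% in either direction). Secretory genes were higher in 22 of 24 and lower in 0, with a median of 1.38, and class I genes higher in 15 of 22 and lower in 1. Interferon-stimulated genes were split, with 13 of 41 higher, among them Isg15, Ifitm3, Ifih1, Rsad2 and Ifit2, 16 lower and a median of -0.20. Class II genes split: H2-Ab1, H2-Eb1 and Cd74 were lower (-2.96 ± 0.13, -3.48 ± 0.12 and -2.17 ± 0.034) and the proteases and reductase Ctsl, Ctss, Lgmn and Ifi30 higher. Ighm stood at 1772 and 1604 CPM in B cells, above pDC (-1.30 ± 0.078; edgeR BH-adjusted p = 1.7e-08), and Mzb1, a chaperone shared by both types, did not pass (-0.26 ± 0.14). DESeq2 called 790 genes higher and 597 lower where edgeR called 1813 and 1585.

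Compared with 33 and 33 phagocytes of Kaede-green 2 and Kaede-red, 6.47% of 7043 genes were higher in pDC and 10.0% lower (16.5% in either direction). Interferon-stimulated genes were lower in 27 of 42 and higher in 2 (Bst2 and Ifi44), with a median of -2.61. Cxcl10 stood at 3495 and 9351 CPM in phagocytes against 33.5 and 12.8 CPM in pDC of the same libraries (log2 change -8.31 ± 0.91; edgeR BH-adjusted p = 0.0012), and Isg15 at 1057 and 3724 CPM (-2.45 ± 0.63). Irf7 did not pass (-0.84 ± 0.48). With 2 libraries the number called higher was 456, and it was 199 with DESeq2 and 730 with no filter on low counts.

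Within pDC, the Kaede-red library was set beside the 2 green ones by CPM ratios (0.5 UMI was added to every sum) and without a test. A gene counted as different when both red-to-green log2 ratios had 1 sign, were at least 1 and exceeded the ratio between the green libraries. Of 9027 genes with at least 20 UMIs over all pDC, 110 (1.22%) were higher in Kaede-red and 418 (4.63%) lower. The pDC markers were not among them: Klk1 had ratios of 0.82 and 1.15, Ccr9 0.44 and 0.61, Ly6d -0.73 and -0.67 and Cox6a2 -0.023 and -0.095. Neither were Irf8, Irf7, Tcf4, Cd4, H2-Aa, Cd74 or Ccl4. With a minimum of 10 UMIs, 195 genes were higher. With every member thinned to 2000 UMIs, 79 genes were higher and 288 lower of 4583. Library and color cannot be told apart here.

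Among the genes higher in Kaede-red pDC were those of the immunoglobulin lambda constant regions. Iglc2 had 77, 83 and 785 UMIs, or 57.6, 35.2 and 719 CPM, in 17, 23 and 51 pDC, and ratios of 3.63 and 4.34. Iglc1 had 9, 9 and 100 UMIs. Other cells of the same libraries held Iglc2 at 7.36, 4.19 and 3.77 CPM, with Kaede-red lowest. Of the B cell genes, Cd79a and Ms4a1 were at 0 UMIs in Kaede-red pDC, whereas Cd79b was highest there, at 32.2, 26.7 and 45.8 CPM with a UMI in 31 of 75 red members, and its part in the Iglc values was not tested. The Iglc genes are near copies and may share reads. Cd8b1 had ratios of 1.34 and 1.65 and was the only coreceptor past the rule. Ccl3, an inflammatory chemokine, stood at 55.3, 26.7 and 214 CPM with ratios of 1.94 and 2.99, 34.8% of its red UMIs lay in 1 cell, and without that cell it was at 141 CPM. Tnf stood at 44.9, 49.3 and 115 CPM (1.35 and 1.22), but 27.2% of its red UMIs lay in 1 cell. Without that cell alone it was at 84.9 CPM in Kaede-red and would not meet the rule against the full green sums. With the highest cell of every library left out it stood at 37.8, 35.4 and 84.9 CPM, which would meet the rule. Ltb, lymphotoxin beta, stood at 15.7, 23.4 and 93.5 CPM (2.55 and 2.00). H2-Q6 and H2-Q7, nonclassical class I genes and near copies, had ratios of 1.16 and 1.64 and 1.21 and 1.12. Gm17657 led the list with 33 UMIs, all in 1 cell, and overlaps Tmem217 on the same strand. Spint1, Angptl7 and Rasl2-9 rested on 14, 34 and 16 red UMIs.

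Genes lower in Kaede-red were led by transcripts that a minority of green pDC carried. Il1b had 132, 270 and 1 UMIs in 5, 23 and 1 pDC, with 57 and 144 of the green UMIs in the highest cell of each library. Lpcat2, an enzyme of platelet-activating factor synthesis, had 27, 74 and 0 UMIs in 17, 43 and 0 pDC and was at least 7.34- and 11.4-fold lower (bound from 3 UMIs in the red pDC). Fcgr1, the high-affinity IgG receptor, had 28, 46 and 0 UMIs and was at least 7.62- and 7.1-fold lower. With Siglech at least 3 the smaller of its log2 ratios was -4.66, beside -5.43 in all members. Vat1, Ifitm6, Acvrl1, Lmo1 and Rtl5 were also at 0 in Kaede-red, with 13 to 50 UMIs in the green libraries, of which 1 cell held 32 of the 50 Ifitm6 UMIs in Kaede-green 2. Ifitm3, an antiviral membrane protein, stood at 739, 851 and 95.3 CPM (-2.95 and -3.15) and was the most abundant of these genes. Fcgr1 is also a phagocyte marker. Of the others, Adgre1 was at 0 in pDC of every library, C1qa had 0, 2 and 0 UMIs, C1qb 2, 4 and 0, and Csf1r 4, 15 and 0, while Apoe had 39, 110 and 51; the part of phagocyte RNA in these differences was not tested.

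All 4 transitional dendritic cell markers with enough UMIs were lower in Kaede-red. They are used for cells between pDC and cDC, but Klf4 and Cx3cr1 were also higher in phagocytes than in pDC. Cd209a and Zbtb46 are cDC markers too, and were the 2 of 6 cDC markers lower in Kaede-red. The part of phagocytes, cDC or cells between in these values was not tested. Cd209a, a C-type lectin, stood at 139.9, 113 and 11.9 CPM (-3.50 and -3.19) and was found in 36.2%, 31.2% and 9.33% of pDC. With every member thinned to 2000 UMIs the smaller of its ratios was -2.11. Cd209a was also lowest in Kaede-red outside pDC, at 6.56, 9.43 and 0.529 CPM in other cells and 854, 384 and 12.6 CPM in phagocytes. The phagocyte value of Kaede-green 1 rests on 5 cells. Klf4 stood at 78.5, 83.6 and 15.6 CPM (-2.30 and -2.39), Cx3cr1 at 17.2, 13.6 and 0.916 CPM (-3.68 and -3.33) and Zbtb46 at 7.48, 12.3 and 1.83 CPM (-1.78 and -2.45). The last 2 rest on 1 and 2 red UMIs. Against the 4.63% of all genes that were lower and the 1.22% that were higher, 11 of 42 interferon-stimulated genes were lower and 0 higher, with medians of -0.61 and -0.48 against the 2 green libraries, beside -0.052 and -0.062 for all genes. They included Ifit3 at 32.9, 24.2 and 1.83 CPM, Cxcl10 at 69.6, 33.5 and 12.8 CPM and Gbp2 at 22.4, 41.6 and 3.67 CPM. This was not seen in pDC alone: other cells held Cxcl10 at 534, 451 and 327 CPM, and the summed level of the list was 6850, 6431 and 4524 CPM in other cells and 6167, 5599.6 and 4493 CPM in CD8 T cells, beside 9008, 8514 and 7698 CPM in pDC, where Bst2 was its most abundant gene. In phagocytes the sum was highest in Kaede-red, at 18912 (5 cells), 16865 and 37975 CPM. Of 14 costimulation genes 4 were lower (Cd83 at 97.2, 59.4 and 13.7 CPM, Cd86, Cd40 and Tnfsf9), of 19 transcription factors 4 (Klf4, Zbtb46, Runx1 and Nfil3), and of 14 chemokine receptors 3 (Ccr2, Cx3cr1 and Cmklr1), each with 0 higher. The rule was met by 0 of 24 secretory genes, 0 of 16 genes of interferon receptors and signaling and 0 of 12 cytokine receptors, counts too small to set apart from the share over all genes.

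**Figure D5:**
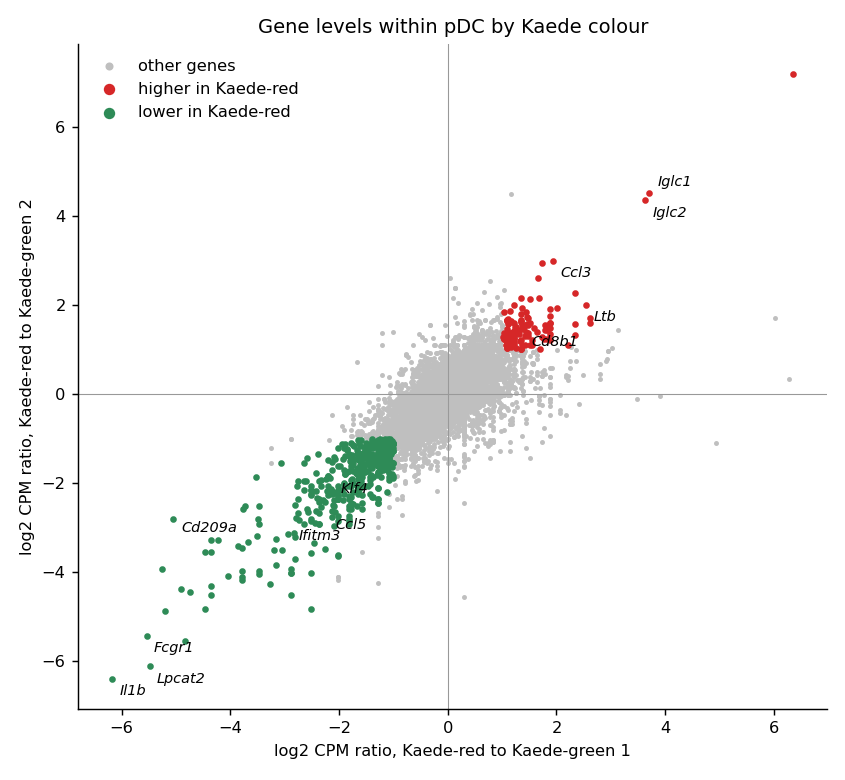
Log2 ratio of CPM in pDC of Kaede-red to Kaede-green 1 (x axis) and to Kaede-green 2 (y axis), 1 point per gene with at least 20 UMIs over all pDC (0.5 UMI added to every sum); red and green points meet the rule for higher or lower in Kaede-red. The 110 red points include Iglc2, Iglc1, Ccl3 and Cd8b1, and the 418 green points include Il1b, Lpcat2, Fcgr1 and Cd209a, several of them at 0 or 1 UMI in Kaede-red.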

How the data were processed

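Counts of UMIs per gene and cell were deposited by the authors as 1 matrix per library, made with Cell Ranger on mm10 (version 6.1.2 in the submitters' processing notes, 6.0.1 in the matrix headers) from 10x 3' libraries, with no normalization. Following the study's filters, a cell was kept when it had between 1000 and 6000 genes and less than 7.5% of its UMIs from mitochondrial genes. Doublets were scored by simulation and left in; removing the top 8% of scores is an alternative. UMIs were summed per library and cell type. pDC were compared with other cells by edgeR 4.0.16 (quasi-likelihood, TMM, low-count filter, library block, BH over all genes tested, threshold 0.05) in R 4.3.3; DESeq2 1.42.0 was an alternative. The SE given with a log2 change is the size of that change divided by the square root of the edgeR F statistic. Sums used Python 3.11.15. Libraries are the replicates: the labels call the Kaede-green libraries biological replicates, and the animals behind each are not given in the sources used here. The p-values rest on the spread between these libraries, with that of each gene drawn by edgeR toward a value shared over genes. Fits to 2 libraries leave few residual degrees of freedom, so their p-values rest mostly on that shared value. With 1 Kaede-red library no test between colors was made.

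B cells had at least 2 Cd79a and 1 Ms4a1 UMIs, phagocytes at least 5 Lyz2 and 1 Csf1r, and cDC at least 1 Flt3 and 5 H2-Aa without Cd79a or Csf1r; all 3 had at most 1 Cd3e UMI and no Ncr1 or Siglech. CD8 T cells had at least 2 Cd3e and 1 Cd8a UMIs without Cd4, and CD4 T cells at least 2 Cd3e and 1 Cd4 without Cd8a. Named genes were members of the 26 gene lists, the 15 largest increases with at least 3 UMIs in pDC of every library, the 10 largest decreases with at least 100 CPM in other cells, and the 8 largest color ratios each way. Members and lists were chosen with earlier results of these data known. The scripts were tested on simulated data. Positions are from the GENCODE annotation of GRCm38 and promoters from RefSeq.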

Additional observations from a re-analysis of the deposited data

Results flagged for a closer look

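For 33 of 286 genes compared (members of the gene lists and genes named for their color ratio, with at least 20 UMIs over all pDC) the pDC of both Kaede-green libraries had a ratio to other cells on 1 side of 0 and those of Kaede-red on the other side, with no limit on its size, and this difference between colors was not tested. Values are log2 ratios of CPM in pDC to other cells, with 0.5 added to each count. Of these genes, 12 also met the rule for a difference between colors within pDC. Ccl3 was at 2.09 in Kaede-red, against -0.96 and -2.12 in the green libraries, and H2-Q7 at 0.89 against -0.56 and -0.55. The other 10 of the 12 had ratios above 0 in both green libraries and below 0 in Kaede-red. Ifitm3 was at -2.07 against 1.54 and 1.24, Klf4 at -1.28 against 0.48 and 0.84, Cd83 at -0.91 against 1.00 and 0.20, and Cd86 at -0.42 against 0.53 and 0.33. Fcgr1 was at -2.53 against 3.30 and 1.49, Lpcat2 at -1.46 against 2.93 and 3.13, Vat1 at -3.41 against 1.86 and 1.40, and Ifitm6 at -2.13 against 1.80 and 0.85. In Kaede-green 2, 1 cell held 32 of the 50 Ifitm6 UMIs, and without it pDC were at 7.68 CPM, below the 11.9 CPM of other cells, so Ifitm6 no longer had 1 direction in the green libraries. Acvrl1 was at -0.37 against 2.48 and 1.94, and Lmo1 at -0.25 against 2.83 and 1.87. Fcgr1, Lpcat2, Vat1, Ifitm6, Acvrl1 and Lmo1 had 0 UMIs in Kaede-red pDC, so their red ratios depend on the 0.5 added. In other cells of Kaede-red all of these but Vat1 (4.88 CPM) lay below 2.75 CPM, the level of 3 UMIs in Kaede-red pDC, so for those 5 genes 0 UMIs does not show a level below other cells. The other 21 of the 33 did not meet the rule between colors. Ratios were above 0 in Kaede-red and below 0 in both green libraries for 12 of them, with red values of 0.081 for B2m, 0.042 for Cox7a2l, 2.04 for Cxcr3, 0.33 for H2-K1, 2.98 for H2-Ob, 0.26 for H2-Q4, 0.51 for H2-T22, 0.42 for Irf3, 0.47 for Itgb7, 0.22 for Samhd1, 0.095 for Tap2 and 0.47 for Tapbpl. They were below 0 in Kaede-red and above 0 in both green libraries for 9, with red values of -0.0016 for Calr, -0.84 for Cd8a, -0.27 for Cox5a, -0.22 for Cox5b, -0.15 for Cox6a1, -0.10 for Il3ra, -0.062 for Psmb10, -0.10 for Psme2 and -2.16 for Tlr2, which had 0 red UMIs.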

How the results depend on the processing

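None of the 6024 genes called between pDC and other cells was called with the opposite sign in any alternative run, and the number called was 4427 to 6371 with a library left out. Without the library block (the pairing of pDC and other cells within a library, since the labels give the Kaede-red library no replicate number), 5853 genes were called. Genes lower in pDC numbered 1996 when other cells were thinned to the pDC total, where fewer genes could be tested. Against B cells DESeq2 called 790 higher and 597 lower. Against phagocytes DESeq2 called 199 higher, and 730 were called with no filter on low counts. Against cDC, leaving out a library gave 677 to 1804 higher and 734 to 1953 lower. The cause was not tested. Between colors, 195 genes were higher at a minimum of 10 UMIs. The smaller of the red-to-green log2 ratios of Il1b moved from -6.17 to -5.06 with Siglech at least 3 and to -4.23 with every member thinned to 2000 UMIs. With Siglech at least 3 it also moved from -5.49 to -4.93 for Lpcat2 and from -5.43 to -4.66 for Fcgr1. The share of pDC in Kaede-green 2 was 1.39% with Cd3e of 0 and 2.17% with Siglech at least 1. Without thinning, the shares of pDC with a UMI were 49.1%, 40.9% and 70.7% for Cd4, 59.5%, 63.4% and 54.7% for Cd8a, and 55.2%, 57.5% and 81.3% for Cd8b1. Among genes that had not passed, the log2 change turned sign for Cox6a1 (0.13 without TMM), Klf4 (-0.080 with DESeq2, -0.0013 with Siglech at least 3 and -0.0064 without high doublet scores), Ifih1 (-0.019 with no filter and -0.044 with Siglech at least 3), Cd86 (-0.46) and Il3ra (-0.00068), both with Siglech at least 3. With a library left out, the ranges were -0.15 to 0.096 for Cox6a1, -1.73 to 0.45 for Ccl3, -0.59 to 0.094 for Cd8a, -0.13 to 0.52 for Cd8b1, -0.46 to 0.75 for Cxcr3, -0.40 to 0.50 for Klf4, -0.15 to 0.24 for Cd86, -0.031 to 0.027 for Ifih1 and -0.064 to 0.20 for Il3ra. Without Kaede-red, Ccl3 and Cxcr3 passed as lower (adjusted p 2.8e-30 and 0.011), and without Kaede-green 2 Cxcr3 passed as higher (0.046). Leave-one-out fits against B cells and phagocytes were not run, as they leave no residual degrees of freedom.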

Other observations

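A few members of the pDC gate lacked Klk1, Ly6d and Cox6a2 altogether: 6 of 116, 17 of 186 and 2 of 75 (chosen after values were seen, and given as a description). They held Siglech at 179, 367 and 733 CPM, against 1943, 1861 and 1890 CPM in the members with at least 1 of these markers, and fewer Irf8 transcripts, at 497, 513 and 646 CPM. Bst2 was at 2843, 2884 and 3059.7 CPM against 3734, 3635 and 4503 CPM. Cd209a was at 621, 428 and 86.2 CPM against 112, 83.5 and 10.3 CPM, and S100a4 at 442, 1002 and 2887 CPM against 71.2, 99.2 and 36.5 CPM. In the green libraries Cx3cr1 was at 110.4 and 70.5 CPM against 11.9 and 8.35 CPM. Of the coreceptor genes, Cd4 had 0 UMIs in all 25 cells and Cd8b1 had 1, 3 and 3 UMIs, whereas Cd8a had 14, 10 and 4 UMIs, or 193, 50.3 and 172 CPM against 321, 332 and 210 CPM.

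Iglc3, a further lambda constant region, was at 584, 426 and 1477 CPM in pDC and 6.64, 6.46 and 2.93 CPM in other cells; together with Iglc2 and Iglc1 it shares sequence, so the split of reads among the 3 is uncertain.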
